A study of Mus musculus with 15 samples.

Results

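hmTOP-seq of mouse embryonic stem cells at 50 ng of DNA was compared with hmTOP-seq at 500 ng gene by gene, in 4 of the 15 libraries of the series. The genes were the 20807 protein-coding genes of the 19 autosomes in GENCODE mouse release 21, and each was counted as a gene body, from its first to its last annotated base, and as a promoter, from 1 kb upstream to 0.5 kb downstream of its start. The reads of all CG sites inside a gene body or promoter were added up, and 3.27% of gene body CGs lay in more than 1 gene body and were counted in each. A test was possible for features with a mean of at least 10 reads over the 4 libraries, which were 18340 gene bodies and 12799 promoters. Of the others, 2467 gene bodies and 8008 promoters were under this minimum, and these included 674 gene bodies and 1441 promoters without a read in any of the 4 libraries.

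5hmC is made from 5mC by the TET dioxygenases and is an intermediate on the way to unmodified cytosine. In mammalian cells it is found mainly at CG sites, in bodies of genes and at regulatory elements, and CG islands at active promoters hold little of it. Embryonic stem cells contain readily measurable 5hmC, with TET1 and TET2 as their main TET enzymes.

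All libraries were made from genomic DNA of E14TG2a, a mouse embryonic stem cell line grown on gelatin with serum and LIF, and the DNA was extracted with phenol and chloroform and sheared by sonication. In the 2 libraries at 50 ng and the 2 at 500 ng, BGT put an azide-modified glucose on 5hmC, a short DNA oligonucleotide was clicked to the azide, and Pfu polymerase started a new strand from the oligonucleotide at the tagged site. The replicates of an input are technical replicates of 1 cell line, so p-values here measure the spread between libraries and not that between cultures. Whether both inputs were taken from the same DNA preparation is not given in the sources used here. The methods name alternative numbers of PCR cycles without saying which input received which. A difference of preparation, of PCR cycles and of input therefore cannot be told apart. With 2 libraries a group, an exact permutation test of a single value could not go below p = 0.333, and the tests below come from a model across all features. The libraries held 22772694 and 21808484 autosomal reads at 50 ng, and 32159559 and 31577846 at 500 ng. Reads are given below as counts in the order replicate 1 and replicate 2, or as CPM, reads per 1000000 autosomal reads of the library. Control libraries that left out BGT held 3386 and 3388 autosomal reads at 50 ng, and 9946 and 9225 at 500 ng. 5hmC reads do not measure transcripts, so the cell type could not be checked against marker expression.

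Short stretches of 7 promoters show what was counted. They were chosen as the promoters with the most 500-ng reads in each CG-density class among a list of 20 genes (Dazl, Prdm14 and Esrrb), those with the smallest p (Elf5, and Cacng4 among CG-rich promoters) and promoters without a read at 50 ng (Slc25a16 and Nell2). Each line has 60 bases of GRCm38, on the strand of the gene, with every CG in capitals. They surround the CG with the most 500-ng reads among those whose 60 bases lie upstream of the start and outside annotated untranslated regions.
Dazl, chr17:50293751-50293810, minus strand: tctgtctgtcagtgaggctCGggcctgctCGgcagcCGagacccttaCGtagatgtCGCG
Prdm14, chr1:13127554-13127613, minus strand: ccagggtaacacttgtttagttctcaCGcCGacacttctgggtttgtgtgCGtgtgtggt
Esrrb, chr12:86360982-86361041, plus strand: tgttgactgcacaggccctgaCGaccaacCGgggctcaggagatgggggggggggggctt
Elf5, chr2:103411484-103411543, plus strand: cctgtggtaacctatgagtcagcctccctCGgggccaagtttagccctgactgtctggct
Cacng4, chr11:107795500-107795559, minus strand: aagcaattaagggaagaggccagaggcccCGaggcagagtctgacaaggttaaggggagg
Slc25a16, chr10:62919746-62919805, plus strand: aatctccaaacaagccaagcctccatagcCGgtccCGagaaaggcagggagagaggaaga
Nell2, chr15:95528771-95528830, minus strand: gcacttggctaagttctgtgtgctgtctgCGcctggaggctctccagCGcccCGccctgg

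The second CG of the Prdm14 stretch had 8 and 12 reads at 50 ng and 14 and 15 at 500 ng. At the second CG of the Esrrb stretch, 17 and 5 reads were counted at 50 ng and 45 and 50 at 500 ng. At the first CG of the Dazl stretch, the counts were 12 and 16 at 50 ng and 3 and 6 at 500 ng. Its second CG had 6 and 2 reads against 18 and 9. Neighboring CGs of 1 promoter thus had opposite orders of the inputs. The second CG, however, had been chosen for its 500-ng reads, which favors a higher count at 500 ng there. The whole Dazl promoter had 312 and 253 reads against 452 and 449, a log2 fold change of -0.12 (SE 0.15, edgeR adjusted p = 0.918). The CG of the Elf5 stretch had 5 and 9 reads at 50 ng and 8 and 19 at 500 ng. The CG of the Cacng4 stretch had 29 and 41 reads against 21 and 21. The first CG of the Slc25a16 stretch had none at 50 ng and 7 and 1 at 500 ng, and that of the Nell2 stretch had none at 50 ng and 4 and 6 at 500 ng.

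The order of genes by 5hmC was largely kept at 50 ng. Gene bodies were ranked by CPM per CG, averaged over the replicates of an input. Spearman's rank correlation between 50 and 500 ng was 0.981 over 18340 gene bodies, beside 0.946 between the 50-ng replicates and 0.987 between the 500-ng replicates. Over 12799 promoters it was 0.948, beside 0.853 between the 50-ng replicates and 0.963 between the 500-ng replicates. These are descriptions across genes, which share their libraries and their CG content. Between a single 50-ng and a single 500-ng library it was 0.963 to 0.966 for gene bodies and 0.898 to 0.909 for promoters. Compared library by library, the inputs thus lay between the 50-ng replicates and the 500-ng replicates. Among gene bodies, the correlation was lowest, at 0.884, in the quintile of genes (20% of all) with the fewest CGs per 100 bp, and was 0.981 in the quintile with the most. In the quintile with the fewest it was also low between replicates, 0.723 at 50 ng and 0.909 at 500 ng. Promoters were split into CG-rich (at least 4 CGs per 100 bp), intermediate, and CG-poor (under 2 CGs per 100 bp). Spearman's coefficient was 0.879 for CG-poor, 0.955 for intermediate and 0.875 for CG-rich promoters. Between the 50-ng replicates it was 0.712, 0.883 and 0.728 in these classes, and between the 500-ng replicates 0.917, 0.968 and 0.910.

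**Figure D1:**
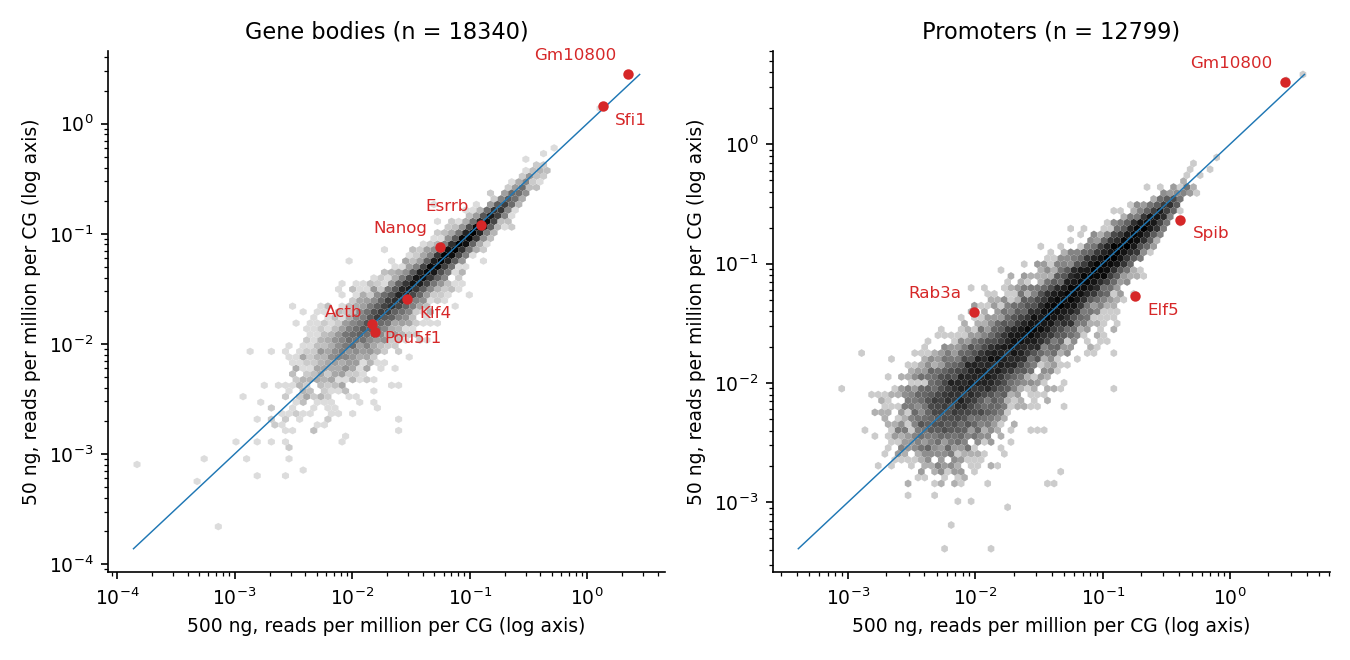
Mean CPM per CG at 500 ng (horizontal, log axis) and at 50 ng (vertical, log axis) of tested gene bodies (left) and promoters (right), shaded by the number of features at a point (darker for more), with equality as a line, named genes in red, and features with no read at an input left out. Gene bodies lie closer to the line (Spearman's correlation 0.981) than promoters (0.948), and the Elf5 promoter lies below it and the Rab3a promoter above it.

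Of the 1834 gene bodies in the top 10% at 500 ng, 1612 (87.9%) were in the top 10% at 50 ng. This share compares means of 2 libraries. Between single libraries it was 91.0% for the 500-ng replicates and 80.9% for the 50-ng replicates. With 50-ng replicate 2 or replicate 1 alone against the 500-ng mean, 84.4% and 84.2% were kept. Of the 1280 promoters in the top 10%, 1054 (82.3%) were kept in the means, beside 85.2% between single 500-ng and 70.3% between single 50-ng replicates. With 50-ng replicate 2 or replicate 1 alone, 78.1% and 76.6% of promoters were kept. In the means, 222 gene bodies and 226 promoters left this class. Of these, 212 (95.5%) and 214 (94.7%) were still in the top 20% at 50 ng, and the lowest were at percentile 63.5 and 62.4. The bottom 10% was held less well at promoters, where 55.6% were kept at 50 ng in the means. Between single replicates 62.5% were kept at 500 ng and 36.8% at 50 ng. At gene bodies 82.7% of the bottom 10% were kept.

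The gene bodies richest in reads per CG stood at the top at both inputs. Gm10800 and Gm10801, 2 predicted genes beside each other on chromosome 2, and Sfi1, which encodes a centrin-binding protein of the centrosome, had the 3 highest values in the same order at both. Gm10800, with 22 CGs, had 1365 and 1379 reads at 50 ng and 1455 and 1690 at 500 ng, but it also had 17 and 13 reads in the 50-ng controls and 48 and 31 in the 500-ng controls. Its promoter had the most reads of any promoter in 1 of the 50-ng controls (18) and both 500-ng controls (45 and 35). In the other 50-ng control the Mcm2 promoter had the most, 23 reads, above the 14 of the labelled library. Other gene bodies of at least 20 CGs near the top were those of Spem2 and Tnp2, which encode proteins of the maturing sperm cell, Arl11, an ARF-like GTPase, and Tcap, which caps titin in muscle. Spem2 had 426 and 416 reads at 50 ng and 745 and 761 at 500 ng, and Tnp2 had 238 and 256 against 313 and 267. The log2 fold changes were -0.31 (SE 0.11) and 0.30 (SE 0.16), and neither passed the test (edgeR adjusted p = 0.335 and 0.478). Of these gene bodies Arl11 had the lowest rank at 50 ng, percentile 99.9.

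Pluripotency genes covered low, middle and high ranks, and none of those named here passed the test. Esrrb, an orphan nuclear receptor of the pluripotency network, had 6034 and 5386 reads in its body at 50 ng and 8616 and 8504 at 500 ng, and lay at percentile 88.4 and 88.1. Nanog, a homeobox regulator of the same network, had 158 and 145 against 167 and 152 reads and lay at percentile 66.2 at 50 ng and 49.7 at 500 ng (log2 fold change 0.46, SE 0.20, edgeR adjusted p = 0.398). The body of Pou5f1, which encodes OCT4, had few reads, 48 and 16 against 47 and 42, and lay at percentile 6.89 at 50 ng and 7.52 at 500 ng. Klf4 lay at percentile 17.3 and 22.5, and Sox2 had 1 read in its body in all 4 libraries together. Tet1, whose product makes 5hmC, had 2841 and 3091 reads against 4167 and 4149 and lay at percentile 84.6 and 81.8. Tet2 lay at percentile 48.4 and 50.9. The de novo methyltransferase genes Dnmt3a and Dnmt3b lay at percentile 84.2 and 63.1 at 50 ng, and at 84.8 and 60.5 at 500 ng. The housekeeping genes Actb, for cytoplasmic actin, and Gapdh, for a glycolytic enzyme, stood low at both inputs, at percentile 5.17 and 3.09 at 50 ng, and 8.26 and 5.35 at 500 ng.

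Differences between the inputs were tested with the quasi-likelihood test of edgeR, adjusted over all features of a kind. Of 18340 gene bodies, 1 passed an adjusted p of 0.05, which is 0.00545% of those tested, and 2200 (12%) had an unadjusted p under 0.05, 1117 of them higher and 1083 lower at 50 ng. Of 12799 promoters none passed (0%), and 757 (5.91%) had an unadjusted p under 0.05, 392 higher and 365 lower. The median SE of the log2 fold change was 0.78 at promoters with a mean of 10 to under 20 reads and 0.19 at 160 to under 320, so a 2-fold difference was within the error of many promoters. With DESeq2, 137 gene bodies (74 higher, 63 lower) and 0 promoters passed. In 93.8% of gene bodies the log2 fold change was smaller than 0.5 in size, and in 1.30% it was at least 1. At promoters these shares were 68.3% and 9.34%. The count of calls rested on having both 50-ng libraries. Without 50-ng replicate 1, 2396 gene bodies and 899 promoters passed, and without 50-ng replicate 2, 2425 and 1237, in fits where the lone 50-ng library is assumed to vary like the 500-ng libraries. Without 1 of the 500-ng libraries, 1 or 2 gene bodies and 0 promoters passed.

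The gene body that passed was Gm20388, a predicted gene of 4435 kb on chromosome 8 (119910841 to 124345722, plus strand) that spans other genes, among them Gse1. It had 192519 and 181363 reads at 50 ng and 289474 and 280167 at 500 ng. Its CPM was 8454 and 8316 against 9001 and 8872, without overlap between the inputs. The log2 fold change was -0.08 (SE 0.01, edgeR adjusted p = 0.0151) on 76470 CGs. It passed in 7 of 12 alternatives and was lower at 50 ng in all 12, with adjusted p between 1.32e-09 and 0.9999. With CGs that lie in a single gene body it did not pass.

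The gene bodies with the next smallest p did not pass (edgeR adjusted p = 0.219 for each), and they are given by the rule for named genes. Ncoa7 (chromosome 10, 30628999 to 30803326), for a nuclear receptor coactivator, had 1286 and 1259 reads at 50 ng and 1415 and 1392 at 500 ng. Its CPM was 56.5 and 57.7 against 44.0 and 44.1, a log2 fold change of 0.39 (SE 0.07). Syt1, the calcium sensor of synaptic vesicle release, had a CPM of 102 and 107 against 86.3 and 89.1 and a log2 fold change of 0.27 (SE 0.05). Both had higher CPM in each 50-ng library than in each 500-ng library, which their choice by the smallest p favors. The others on this side were Mecom (0.18), a zinc finger transcription factor, Sfi1 (0.11), the receptor phosphatase gene Ptprk (0.28), Immp2l (0.19), which encodes a mitochondrial peptidase, the receptor kinase gene Erbb4 (0.39), the zinc finger genes Bnc2 and Zbtb20 (0.20 each) and the cadherin gene Cdh18 (0.31). Their bodies had GC contents from 36.0% (Erbb4) to 46.2% (Sfi1).

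On the other side, Ddx54 (chromosome 5, 120612739 to 120628592), for a DEAD-box RNA helicase, had 879 and 885 reads at 50 ng and 1673 and 1641 at 500 ng. Its CPM was 38.6 and 40.6 against 52.0 and 52.0, a log2 fold change of -0.38 (SE 0.08). Foxn4, a forkhead factor of retinal progenitors, had a CPM of 38.5 and 44.5 against 57.1 and 54.3 (log2 fold change -0.41, SE 0.08). For both genes the inputs did not overlap, which their choice by the smallest p favors. The others were Gse1 (-0.11), Acvr2b (-0.27), for an activin receptor, Galnt2 (-0.17), for an enzyme that starts O-glycans, the calcium channel gene Cacna1h (-0.24), 5730409E04Rik (-0.79), the adhesion gene Sdk2 (-0.14) and Brpf3 (-0.24), which encodes a bromodomain protein. Gse1 and Galnt2 share CGs with Gm20388. Their bodies had GC contents from 50.3% (Sdk2) to 55.7% (Cacna1h), all above those of the 10 genes on the higher side.

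The fold changes of gene bodies were ordered by base composition. In the quintile of genes with the lowest GC content (median 38.5%), the median log2 fold change of 50 over 500 ng was 0.13, and over the following quintiles (medians 42.3%, 45.4%, 49.1% and 53.9%) it was 0.08, 0.02, -0.04 and -0.10. In CPM, all gene bodies of the lowest quintile together had 50993 and 51731 at 50 ng and 47250 and 48125 at 500 ng, and those of the highest quintile had 116530 and 114547 against 126424 and 123118. Neither pair overlapped between the inputs. At an unadjusted p under 0.05, where the background is 12% of gene bodies, 447 were higher and 28 lower at 50 ng in the lowest quintile, and 41 were higher and 604 lower in the highest. No gene body of these 2 quintiles passed the adjusted threshold in edgeR. Medians of the log2 ratio between the replicates of 1 input went from -0.01 to 0.02 at 50 ng and from -0.03 to 0.03 at 500 ng over the same quintiles.

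Among the deeply read gene bodies, with a mean of at least 1280 reads, 208 of 233 in the lowest GC quintile had a log2 fold change above 0, and 603 of 659 in the highest had one below 0. The quintiles by CG density followed the same order, with medians of 0.12, 0.06, 0.01, -0.04 and -0.08 from the lowest to the highest. The top minus the bottom quintile by CG density was -0.19, and it was -0.18 and -0.22 for each 50-ng replicate against 500 ng, but 0.03 between the 50-ng and 0.06 between the 500-ng replicates. Within the highest GC quintile, the median was -0.11, -0.08, -0.09 and -0.10 in the second to the fifth CG-density class, and the first held 11 of its gene bodies. Within the lowest GC quintile it was 0.13 and 0.13 in the first and the second CG-density class, and the others there held 189, 31 and 13 gene bodies. Genes of the longest quintile had a median of 0.04 and those of the shortest -0.06, with median GC contents of 42.8% and 49.9%. In the lowest GC quintile the median lay between 0.11 and 0.22 at every length.

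**Figure D2:**
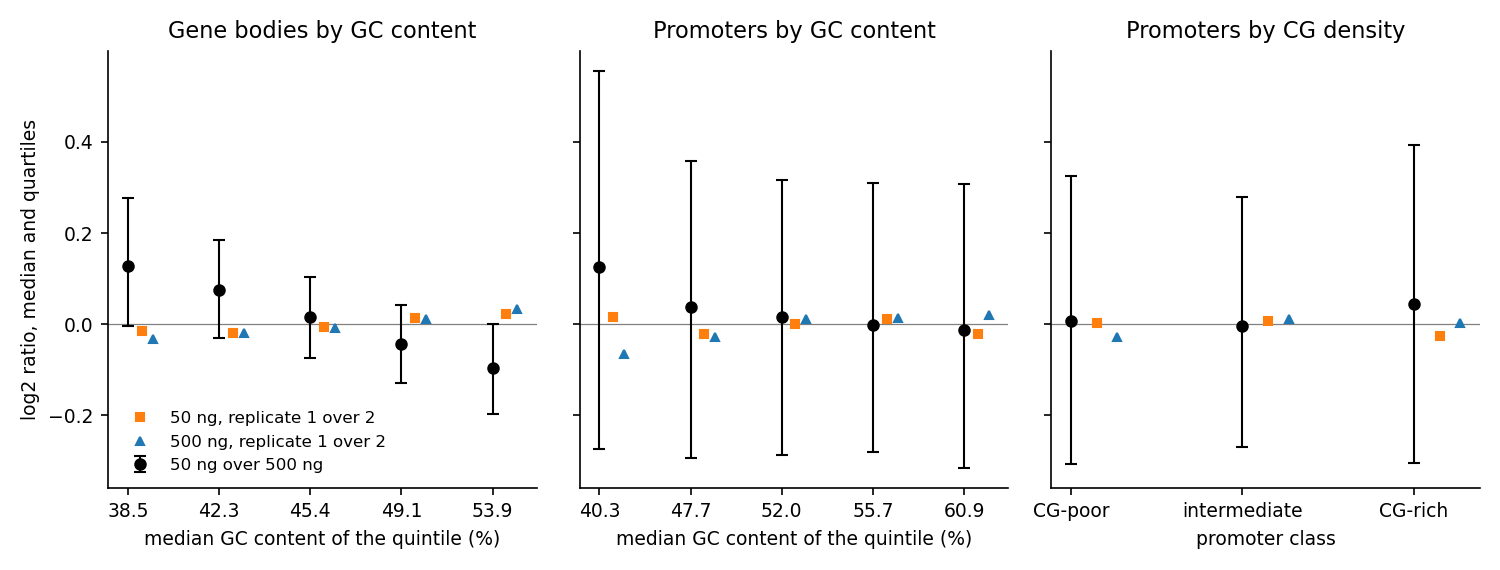
Log2 ratio of 50 over 500 ng (black circles, median, with bars from the lower to the upper quartile over features) of gene bodies and promoters by quintile of GC content and of promoters by CG-density class, with medians of replicate 1 over 2 at 50 ng (squares) and at 500 ng (triangles). The medians of gene bodies go from 0.13 to -0.10 over the GC quintiles. Those between replicates, whose sign depends on the replicate numbering, go from -0.01 to 0.02 and from -0.03 to 0.03.

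Promoters showed less of this order in their medians. Their median log2 fold change by quintile of GC content was 0.12, 0.04 and 0.02 in the first, the second and the third, and -0.0017 and -0.013 in the fourth and the fifth. For summed CPM the log2 ratio was 0.08, -0.02, -0.04, -0.07 and -0.07. All promoters of the lowest quintile together had 1673 and 1661 CPM at 50 ng and 1559 and 1595 at 500 ng. Those of the highest had 6106 and 6072 against 6426 and 6317, and neither pair overlapped. CG-rich promoters exceeded CG-poor ones by 0.04 in the median, while the same difference was -0.03 between the 50-ng replicates and 0.03 between the 500-ng replicates, so that it was about as large as between replicates. Within CG-poor promoters the median was 0.11 in the lowest GC quintile and -0.07 in the highest, which held 23 of them. Within intermediate ones it was 0.15 and -0.03. Within CG-rich promoters it was 0.19 in the second quintile, the lowest they reached, and -0.01 in the highest, but the replicates of that second quintile themselves had medians of -0.10 at 50 ng and -0.13 at 500 ng. With a mean of at least 80 reads, the same medians were 0.07 and -0.08 (CG-poor), 0.01 and -0.03 (intermediate) and 0.00 and -0.04 (CG-rich).

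Among promoters with the smallest p, none of which passed (edgeR adjusted p = 0.804 for each), that of Elf5 (chromosome 2, 103410688 to 103412187), an ETS transcription factor of trophoblast and mammary gland, had 21 and 22 reads at 50 ng and 89 and 117 at 500 ng. The log2 fold change was -1.70 (SE 0.37), and the promoter lay at percentile 62.4 at 50 ng and 91.3 at 500 ng. Spib, an ETS factor of B cells, had 115 and 114 against 298 and 269 reads and lay at percentile 96.4 and 99.8 (log2 fold change -0.75, SE 0.19). Omp, the marker gene of mature olfactory neurons, had 148 and 161 against 360 and 359 reads (-0.66, SE 0.17). In each of these promoters both 50-ng libraries were below both 500-ng libraries in CPM, but choice by the smallest p favors such a separation. Other lower ones were those of Vwa5b1 (-1.99), Resp18 (-1.62), Mslnl (-1.60), the sulfotransferase gene Chst13 (-0.78), Siah3 (-0.84) and the homeobox gene Irx4 (-1.38).

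Higher at 50 ng was the promoter of Cacng4 (chromosome 11, 107794058 to 107795557), which encodes an auxiliary subunit of AMPA receptors, with 130 and 122 reads at 50 ng and 90 and 97 at 500 ng (log2 fold change 0.98, SE 0.24). Fgf14, a fibroblast growth factor homolog that acts on sodium channels, had 225 and 162 against 149 and 161 reads (0.87, SE 0.20). Rab3a (chromosome 8, 70753679 to 70755178), a GTPase of synaptic vesicles, had 46 and 65 against 11 and 29 reads (2.02, SE 0.50) and lay at percentile 53.1 at 50 ng and 18.4 at 500 ng. Its CPM of 0.342 and 0.918 shows that the 500-ng replicates themselves differed by more than 2-fold. The others were Msrb2 (1.79), Dcaf15 (1.69), the actin-bundling gene Espn (1.62), Dpm2 (1.28), Gm10800 (0.31), Nsmce1 (0.88) and Notum (1.27), which encodes a Wnt deacylase.

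Several promoters of the pluripotency network had too few reads for a test. The Pou5f1 promoter had 1 and 0 reads at 50 ng and 9 and 2 at 500 ng, that of Klf4 had 0 and 0 against 3 and 6, and that of Sox2 had 1 and 0 against 5 and 1. The Esrrb promoter (161 and 115 against 231 and 230 reads) and the promoter of the germline gene Dazl were at percentile 95.1 and 88.6 at 50 ng, and at 96.5 and 89.9 at 500 ng.

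**Figure D3:**
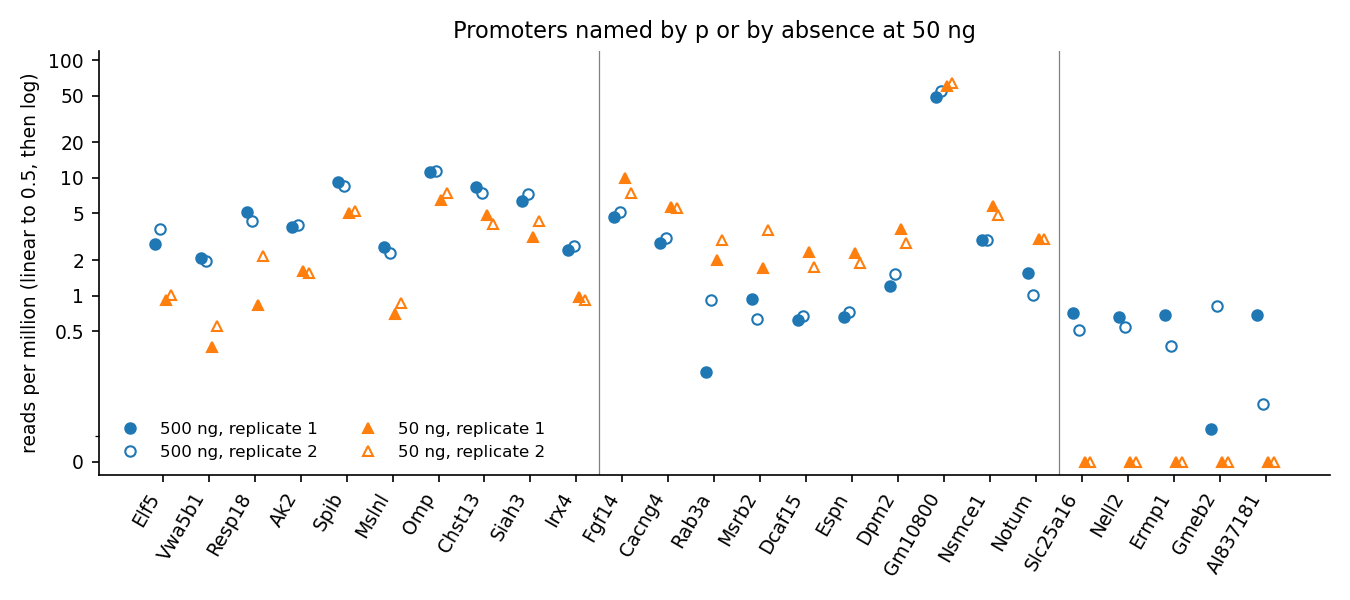
CPM of named promoters in each of the 4 libraries, 1 point per library, on an axis that is linear up to 0.5 and logarithmic above, with lines between the promoters lower at 50 ng, higher at 50 ng and without a read at 50 ng. Both 50-ng points lie below both 500-ng points for Elf5, Spib and Omp, and above them for Cacng4, Fgf14 and Rab3a. These promoters were chosen by the smallest p, which favors such a separation.

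The spread between libraries was larger at 50 ng. The log2 ratio of the 2 replicates had an SD of 0.52 over gene bodies at 50 ng and of 0.24 at 500 ng, and over promoters of 1.19 and 0.51. In classes of equal mean reads over the 4 libraries, in which the 50-ng libraries hold fewer reads than the 500-ng libraries, the SD at 50 ng was 1.88 to 2.48 times that at 500 ng over gene bodies, and 1.99 to 2.41 times over promoters. Counting error of independent reads was smaller than either, and the observed SD was 2.39 to 3.16 times the counting SD at 50 ng and 1.47 to 1.54 times at 500 ng over gene bodies. Among gene bodies with a mean of 10 to under 20 reads, 48.4% differed by more than 2-fold between the 50-ng replicates and 17.3% between the 500-ng replicates. With 80 to under 160 reads these were 5.47% and 0%, and with 160 to under 320 reads 0.668% and 0%.

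**Figure D4:**
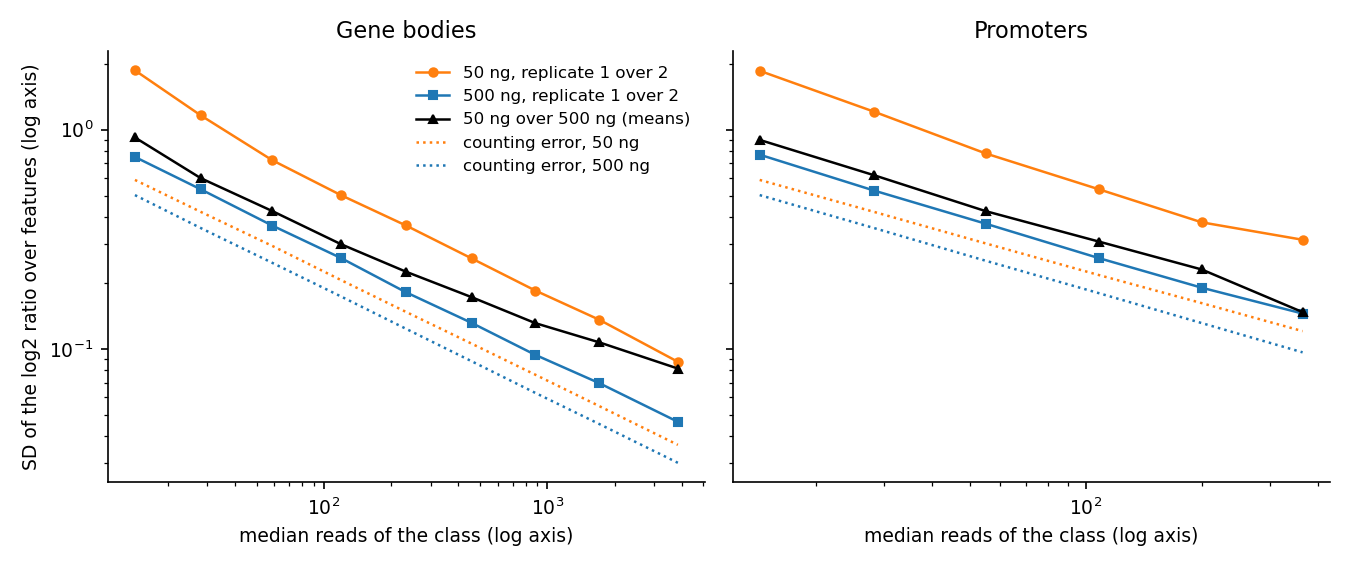
SD over features of the log2 ratio between replicates at 50 ng, between replicates at 500 ng and between the inputs, by reads per feature, for gene bodies (left) and promoters (right), both axes logarithmic, with dotted lines for counting error alone. At 10 to under 20 reads per gene body the SD is 1.86 between the 50-ng and 0.75 between the 500-ng replicates, and both decrease with more reads.

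A CG with a read in both replicates of an input is called an overlapping 5hmCG here. Of those found at 500 ng in gene bodies, 36.2% were also overlapping at 50 ng, and in promoters 38.3%. The 500-ng libraries were deeper, and after thinning all libraries to the smallest these shares were 39.6% and 41.9%. Of the overlapping 5hmCGs of 50 ng, 84.3% in gene bodies and 85.1% in promoters were in the 500-ng set. The libraries at 50 ng covered 2185828 and 2318437 CGs of gene bodies with a read, and those at 500 ng 3810699 and 3970590. Over the quintiles of gene bodies from few to many CGs per 100 bp, 24.5%, 29.8%, 35.0%, 40.6% and 45.4% were kept. In promoters, 41.6% were kept in CG-poor ones (15189 of 36501), 41.5% in intermediate ones (20475 of 49392) and 32.7% in CG-rich ones (16560 of 50575). CG-rich promoters thus kept 8.87 percentage points less than CG-poor ones.

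The difference was smaller at equal coverage. Among promoter CGs with a mean of 4 to under 8 reads at 500 ng, 40.7% were kept in CG-poor, 41.9% in intermediate and 39.4% in CG-rich promoters, a difference of -1.35 percentage points between CG-rich and CG-poor. It was -2.98 at 1 to under 2 reads, -2.22 at 2 to under 4, -1.01 at 8 to under 16, -1.93 at 16 to under 32 and 1.07 at 32 or more, in a split chosen after the data were seen. In gene bodies the share kept was 10.5% at a mean of 1 to under 2 reads at 500 ng, 38.3% at 4 to under 8 and 99.0% at 32 or more. The counts on which these shares rest come from reads without molecular identifiers, so the values are descriptions without a test.

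**Figure D5:**
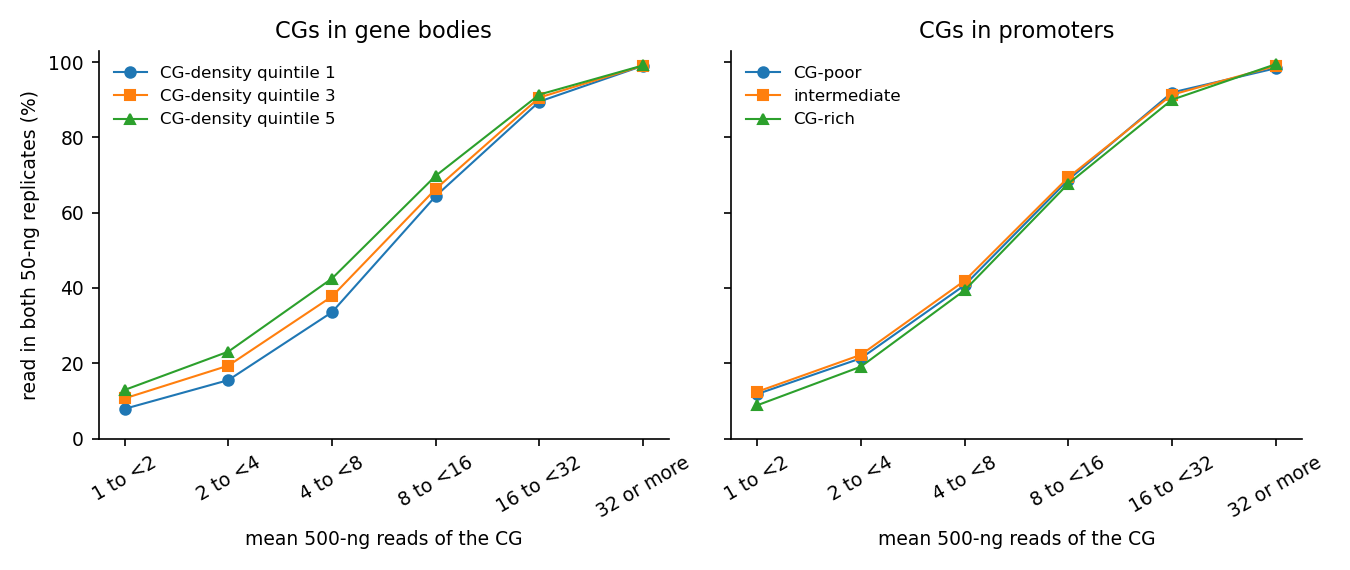
Share (%) of the overlapping 5hmCGs of 500 ng that had a read in both 50-ng replicates, by mean 500-ng reads of the CG, for gene bodies of the first, the third and the fifth CG-density class (left) and for the 3 promoter classes (right). At 4 to under 8 reads the promoter classes lie between 39.4% and 41.9%, and the shares of gene bodies reach about 99.0% at 32 reads or more.

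Counted by gene, 3778 of the 16054 promoters with an overlapping 5hmCG at 500 ng (23.5%) had none at 50 ng and are called lost here, and 223 had one at 50 ng alone. By class, 1254 of 5078 CG-poor (24.7%), 563 of 3954 intermediate (14.2%) and 1961 of 7022 CG-rich promoters (27.9%) were lost. Of the lost promoters, 3398 (89.9%) still had a read in a 50-ng library. The lost promoters had a median of 2 overlapping 5hmCGs at 500 ng and the kept ones 8. The share lost was 74.3% with 1 such site, 52.6% with 2, 25.9% with 3 to 5, 5.79% with 6 to 10 and 0.283% with 11 to 20, and none of the 1484 promoters with 21 or more was lost. With 1 site, 598 of 792 CG-poor, 210 of 306 intermediate and 853 of 1137 CG-rich promoters were lost. The shares were 57.3%, 45.1% and 52.4% with 2 sites, and 25.5%, 23.0% and 27.2% with 3 to 5. Of gene bodies, 1095 of 19202 (5.70%) were lost, 742 of them among the 2966 in the quintile with the fewest CGs per 100 bp, and none of the 15303 with 21 or more sites.

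Of the 19130 promoters and 20071 gene bodies with a read at 500 ng, 1485 promoters and 438 gene bodies had none at 50 ng. The reverse was found for 236 promoters and 62 gene bodies, and the 500-ng libraries were deeper. Among the 1485 promoters, that of Slc25a16, a mitochondrial carrier gene, had the most reads, 23 and 16, or 0.715 and 0.507 CPM. A count of 0 in the 50-ng libraries allows up to 0.132 and 0.138 CPM, counting error alone considered. The promoter of Nell2, for a secreted protein of the nervous system, followed with 21 and 17 reads, and Ermp1, for an endoplasmic reticulum peptidase, with 22 and 14. Gmeb2 (4 and 26 reads) and AI837181 (22 and 7) had most of theirs in 1 replicate. All 5 were CG-rich promoters, with 82 to 132 CGs, of which 1 to 5 were overlapping 5hmCGs at 500 ng.

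The largest differences in rank were at features with few reads, and all are given as values. Among gene bodies, Ifnl3, an interferon gene with 10 CGs, had 4 and 8 reads against 35 and 25 and lay at percentile 18.8 at 50 ng and 75.5 at 500 ng. Olfr510, an olfactory receptor gene with 6 CGs, had 25 and 23 against 8 and 12 and lay at percentile 97.6 and 46.7. Neither passed the test (edgeR adjusted p = 0.362 and 0.337). Of the other gene bodies with the largest rank differences, Krtap28-10, Klk14, Pth and Gm21958 ranked lower at 50 ng and Stfa3, Defb7, Igll1 and Klk1b27 higher, with at most 40 CGs each. Among promoters, Tor4a had 1 and 0 reads at 50 ng and 25 and 16 at 500 ng, and Ms4a12 had 27 and 15 against 1 and 8. The promoter of 1700109H08Rik ranked higher at 50 ng with 0 and 37 reads against 5 and 5, so that its rank rests on 1 of the 50-ng libraries.

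In the lists of gene classes, chosen with earlier results known, none of the members passed the edgeR test except Gm20388 among very long genes. Very long genes (at least 400 kb) showed the largest share of these classes at an unadjusted p under 0.05, 159 of 338 tested bodies (47.0%, against 12% of all), with 151 higher and 8 lower at 50 ng and a median log2 fold change of 0.10. Over all gene bodies, however, that share rose with reads, to 26.5% at a mean of 2560 reads or more. In the longest quintile of genes it was 19.3%. The median GC content of the very long genes was 40.6%. In the lowest GC quintile the longest quintile of genes had a median of 0.13, as that GC quintile had as a whole. Together the very long genes had 66600 and 67132 CPM at 50 ng and 65414 and 65745 at 500 ng, without overlap. Fgfr2, a fibroblast growth factor receptor gene of this list, had 46100 and 44171 reads against 65507 and 64640, and Zfhx3, for a zinc finger homeobox factor, had 26933 and 25127 against 37756 and 37104. The 500-ng libraries were deeper, and the log2 fold changes were 0.004 (SE 0.015) for Fgfr2 and 0.008 (SE 0.020) for Zfhx3.

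Most regulators of development and all germline genes kept at least 1 overlapping 5hmCG at 50 ng in their promoters, where 23.5% of all promoters with such a site lost every one. Of all promoters with 11 to 20 such sites at 500 ng, however, 0.283% were lost, and of the 1484 with 21 or more none. All 39 Hox genes, which pattern the body axis, were tested in body and promoter, and none lost its overlapping 5hmCGs in either. Their bodies had 1045 and 1037 CPM at 50 ng and 1042 and 1044 at 500 ng, with 48.6% of overlapping 5hmCGs kept, against 36.2% over all gene bodies. Hox bodies had a median of 3.25 CGs per 100 bp, and 45.4% were kept in the quintile with the most CGs per 100 bp. They had 110 and 109 CPM per 1000 CGs at 50 ng and 110 and 110 at 500 ng. Over all gene bodies it was 59.5 and 59.4 at 50 ng and 60.4 and 60.1 at 500 ng. Of Hox bodies 6 of 39 had an unadjusted p under 0.05 (15.4% against 12%), 3 in each direction. The 30 germline genes had the promoters with the most reads per CG among the listed classes, with 126 and 126 CPM per 1000 CGs at 50 ng and 136 and 128 at 500 ng, and none was lost. Of their overlapping 5hmCGs 51.9% were kept in promoters, against 38.3% over all promoters, and 35.5% in bodies. The germline promoters had a median of 28 such sites at 500 ng and the Hox promoters 18, beside 6 over all promoters. The median was 17 for the endoderm and mesoderm regulators and 12 for the neural regulators. Mov10l1, for an RNA helicase of piRNA production, had 279 and 269 promoter reads against 518 and 457, and Sycp1, for a protein of the synaptonemal complex, 304 and 234 against 464 and 455. The log2 fold changes of these promoters were -0.28 (SE 0.14) and -0.22 (SE 0.15), and neither passed the test. None of the promoters of 26 endoderm and mesoderm regulators was lost, with 39.1% of sites kept, with 332 and 262 against 445 and 435 reads at Hand1, a heart and trophoblast factor. Of the 29 neural regulators the promoters of Lhx2, Dlx2 and Sox1 were lost (10.3%), and 33.8% of the promoter sites of this class were kept.

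Promoters of the pluripotency network were lost in 5 of 22 cases, namely Sox2, Lin28a, Klf2, Jarid2 and Dppa4. Among cytosine modification enzymes and readers 6 of 20 were lost, Kdm2b, Gadd45a, Mbd4, Tdg, Apex1 and Mbd2. These are 22.7% and 30%, against 23.5% of all promoters, but only 5 and 6 genes, and no test was made. The medians were 4.5 and 6.5 overlapping 5hmCGs per promoter at 500 ng, beside 6 over all promoters. Of 33 imprinted promoters 4 were lost (12.1%: Peg3, Usp29, Slc38a4 and Impact), and of 14 housekeeping promoters 5 (35.7%), among them Ppia, Ubb and Polr2a. Their medians were 7 (imprinted) and 5 (housekeeping) overlapping 5hmCGs at 500 ng. The Peg3 promoter had 2 and 4 reads at 50 ng and 14 and 18 at 500 ng.

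Losses were frequent in the large receptor families, whose bodies had medians of 0.409 (olfactory) and 0.397 (vomeronasal) CGs per 100 bp. Of 263 olfactory receptor promoters with an overlapping 5hmCG at 500 ng, 171 were lost (65.0%), and of 52 vomeronasal receptor promoters 42 (80.8%), against 23.5% of all promoters. The median was 1 such site per promoter in both families, and of all promoters with 1 such site 74.3% were lost. In gene bodies, 371 of 668 olfactory (55.5%) and 83 of 190 vomeronasal receptor genes (43.7%) were lost, against 5.70% of all gene bodies. Their bodies had medians of 2 and 4 such sites, beside 75 over all gene bodies. Of all gene bodies 61.9% were lost with 2 such sites and 37.4% with 3 to 5. Of 1128 autosomal olfactory receptor genes 337 reached the minimum of reads in the body, and of 327 vomeronasal receptor genes 130. The summed reads of these families were close at both inputs. The olfactory receptor bodies had 714 and 744 CPM at 50 ng and 709 and 731 at 500 ng, which overlap. Reads of near-identical family members can be dropped or misplaced in mapping, so the counts of single receptor genes are uncertain. Histone cluster genes, which are short and CG-rich, lost 24 of 35 promoters (68.6%) and 10 of 19 bodies (52.6%), with medians of 2 overlapping 5hmCGs at 500 ng in each. Ribosomal protein genes lost 20 of 62 promoters (32.3%, against 23.5% of all and 27.9% of CG-rich promoters) and 13 of 69 bodies (18.8%). They had medians of 3 overlapping 5hmCGs at 500 ng per promoter and 9 per body. Keratin genes had a median of -0.09 over 80 tested bodies of 50.9% median GC content, and 6 (7.50%, against 12% of all) had an unadjusted p under 0.05, with 570 and 559 CPM at 50 ng against 608 and 606 at 500 ng. Clustered protocadherin genes, many of whose bodies share CGs, had a median of 316 overlapping 5hmCGs at 500 ng per body, beside 75 over all gene bodies. Of their 57 bodies 10 had an unadjusted p under 0.05, all lower at 50 ng, with a median log2 fold change of -0.06. These are 17.5% against 12% of all, a share that was higher in deeply read bodies. Of the other classes an unadjusted p under 0.05 was found for 38 of 363 bodies of Zfp zinc finger genes (10.5%) and 46 of 329 of solute carrier genes (14.0%). It was found for 1 of 39 of proteasome genes (2.56%), and the medians of these 3 classes were 0.02, 0.00 and 0.02.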

How the data were processed

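hmTOP-seq libraries of E14TG2a cells at 50 ng and 500 ng, 2 technical replicates each, were compared. According to the methods, the authors filtered the reads, mapped them to mm10, removed duplicates and assigned reads to CGs, and the deposited values are read counts per CG and library with both strands merged and without normalization. The counts were used as deposited, and each position was checked to be a CG of GRCm38. Duplicates were removed without molecular identifiers, so counting error is a lower limit. Depth was 21808484 to 32159559 autosomal reads, which at 10 reads per feature leaves differences under 2-fold within the spread of replicates.

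Reads were added up over gene bodies and promoters of GENCODE mouse release 21 and tested by the quasi-likelihood test of edgeR 4.0.16 (R 4.3.3) with TMM factors on autosomal reads, no covariates, a mean of at least 10 reads and Benjamini-Hochberg adjustment with a threshold of 0.05. The fit was tested on simulated data. Ranks used CPM per CG, and classes, sites kept and spread were computed in Python 3.11.15 (numpy 2.4.6, scipy 1.17.1, pandas 2.3.3, matplotlib 3.10.9). Named genes were all that passed, then those with the smallest p (a mean of at least 100 reads for gene bodies, 30 for promoters), the gene bodies of at least 20 CGs with the most reads per CG, promoters with the most 500-ng reads and none at 50 ng, the largest rank differences, 20 listed genes, and in gene classes the members with the most 500-ng reads. The genes, lists and classes were chosen with earlier results of these data known. Alternatives were DESeq2 1.42.0, other scalings, filters, windows and classes, thinning of reads with a seed of 1, a replicate block, and leaving out each library. Replicate numbers did not pair libraries across the inputs. The 5-ng libraries entered 1 alternative, and the uTOP-seq libraries were not used here.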

Additional observations from a re-analysis of the deposited data

How the results depend on the processing

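The count of gene bodies that passed (1) was 0 with no filter, with at least 10 reads in every library, with all 6 labelled libraries in the fit, after thinning to the smallest library and with CGs in 1 gene body only. It was 69 with a replicate block and 137 with DESeq2. Leaving out each library in turn gave 1 to 2425 gene bodies and 0 to 1237 promoters, and the high counts came from the fits with a lone 50-ng library. Replicates of the same number did not deviate together (correlation 0.05 for gene bodies and 0.02 for promoters), so the replicate block tests no pairing of the design, and with the block 0 promoters passed.

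Spearman's correlation of gene bodies (0.981) was 0.990 by reads per kb and 0.967 to 0.978 without 1 library, and Pearson's r of log2 values was 0.977. The top 10% of gene bodies kept (87.9%) became 90.8% by reads per kb, 86.2% for the top 5%, and 84.2% to 88.0% without 1 library. For promoters the correlation (0.948) became 0.909 by reads per kb, 0.961 with at least 10 reads in every library, 0.913 in windows of 2 kb upstream, and 0.907 to 0.941 without 1 library. The share of the top 10% of promoters kept (82.3%) became 83.8%, 81.1% and 77.5% under these settings, 76.4% for the top 5%, and 76.6% to 81.2% without 1 library. The lost promoters (3778) and gene bodies (1095) were 3182 and 916 after thinning to the smallest library, and 1485 and 438 when a read in either replicate counted. The promoter class difference in log2 fold change (0.04) was 0.022 with no filter and 0.021 to 0.045 without 1 library. That between gene bodies of the top and bottom CG-density quintile (-0.19) was -0.22 by quintiles of GC content and -0.24 to -0.17 without 1 library. The difference in sites kept between CG-rich and CG-poor promoters (-8.87 percentage points) was -6.78 with at least 2 reads in both replicates, -8.05 with 3 equal classes and -1.35 at a mean of 4 to under 8 reads. The GC quintiles and the last coverage class were chosen after seeing the data, and the cause of these shifts was not tested. The class differences kept their sign under the alternatives given here. At a mean of 32 or more reads, however, the difference in sites kept was 1.07 percentage points. Reads per feature limited what could be seen, since features of 10 to under 20 reads often differed by more than 2-fold between 50-ng replicates.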
